A study of Mus musculus with 12 samples.

Results

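The 10 genes described here serve the sphingosine-1-phosphate system. They are the receptors S1pr1 to S1pr5, the transcription factor Klf2, the sphingosine kinases Sphk1 and Sphk2, the transporter Spns2 and the lyase Sgpl1. They were taken by gene symbol from the 23284 genes of 2 count tables, and the set was chosen with earlier results of these data known. All 10 passed the filter on low counts in both tissues.

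RNA was sequenced from spleen and from axillary lymph node of mice that lack both apoE and apoA-I (DKO) and of the same double mutants carrying human apoA-I in excess (named DKO/hA-I). The 4 groups were DKO spleens, DKO/hA-I spleens, DKO nodes and DKO/hA-I nodes, with 3 libraries each, all from mice 30 weeks old on normal laboratory diet. Both genotypes thus lack the mouse form of apoA-I, which makes up most of the protein of high density lipoprotein, and differ in the human form. The animal codes differ between the tissues, and the sources used here do not name the promoter of the human gene. The middle number of the animal code is 75 in all DKO nodes, while it is 76, 77 and 78 in the DKO/hA-I nodes, so in lymph node the genotype and that number cannot be told apart.

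Sphingosine-1-phosphate is a lipid that signals outside the cell. Red cells, endothelium and platelets release it, high density lipoprotein (through apolipoprotein M) and albumin carry it in plasma, and lymphocytes follow it out of lymphoid tissue through the receptor encoded by S1pr1. Inside the tissue the lyase keeps its level low. KLF2 is known to switch on S1pr1 in T cells, and the other receptors serve other cells, S1pr2 among them as a brake on migration of germinal centre B cells.

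Depth and labels touch the results in these ways. Libraries held 5911835 to 11950825 counts, the lowest being DKO node replicate 2. Erythroid markers summed to 981 to 4059 CPM in the spleens and 0.43 to 2.02 CPM in the nodes. CPM here are counts relative to library size, scaled by TMM over the 12 libraries. The pseudogene Rpl31-ps12 had 2094 counts over the DKO nodes against 3 over the DKO/hA-I nodes, but 5 over the DKO spleens against 2162 over the DKO/hA-I spleens. The genotype labels of the tissues therefore go against each other at this gene, and DKO and DKO/hA-I below mean the libraries so labelled. The authors' deposited log2 ratios correlated over genes with the edgeR fold changes at -0.993 in lymph node and 0.945 in spleen. Their headers do not name the first group, so an unlike order of groups and unlike labels cannot be told apart by these signs. If the labels of 1 tissue were exchanged, each genotype direction in that tissue would turn. Each comparison of spleen with node would then set unlike genotypes against each other. The interaction would no longer be a difference of the genotype contrasts.

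Receptors with opposite behaviour in the nodes are shown by their promoters, the 250 bases before the RefSeq start site on build GRCm38.p6, 5′ to 3′ on the gene's strand. S1pr2 and S1pr3 were higher in DKO nodes, and S1pr4 and S1pr5 had lower values there that did not pass the test. Capitals mark CACCC, the box that Krüppel-like factors such as KLF2 bind, and its reverse complement GGGTG. The start sites of 9 of the 10 genes matched the RefSeq table, S1pr1 being the other.

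S1pr2 (chr9:20976794-20977043, minus strand): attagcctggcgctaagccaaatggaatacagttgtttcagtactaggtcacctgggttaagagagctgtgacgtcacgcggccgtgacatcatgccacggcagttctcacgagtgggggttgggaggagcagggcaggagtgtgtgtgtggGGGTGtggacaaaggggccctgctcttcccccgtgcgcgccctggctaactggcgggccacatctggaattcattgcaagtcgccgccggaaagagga
S1pr3 (chr13:51408368-51408617, plus strand): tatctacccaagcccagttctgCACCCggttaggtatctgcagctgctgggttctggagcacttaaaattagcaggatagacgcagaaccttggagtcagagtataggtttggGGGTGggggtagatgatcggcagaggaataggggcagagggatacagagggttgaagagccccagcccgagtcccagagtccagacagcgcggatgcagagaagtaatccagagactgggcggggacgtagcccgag
S1pr4 (chr10:81500138-81500387, minus strand): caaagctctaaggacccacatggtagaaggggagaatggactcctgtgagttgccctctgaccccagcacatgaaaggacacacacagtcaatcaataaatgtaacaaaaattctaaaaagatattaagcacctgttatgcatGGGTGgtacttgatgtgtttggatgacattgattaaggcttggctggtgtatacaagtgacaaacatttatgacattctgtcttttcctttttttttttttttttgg
S1pr5 (chr9:21248444-21248693, minus strand): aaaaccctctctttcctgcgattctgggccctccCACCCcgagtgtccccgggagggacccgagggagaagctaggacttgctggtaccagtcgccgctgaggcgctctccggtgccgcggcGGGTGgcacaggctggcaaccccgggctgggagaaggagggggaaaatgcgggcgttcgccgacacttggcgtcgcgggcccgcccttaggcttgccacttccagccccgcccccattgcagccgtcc

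The S1pr2 and S1pr4 windows hold 1 such box each and the S1pr3 and S1pr5 windows 2 each. Of 32851 promoters in the table, 52.0% hold at least 1 box and 21.1% at least 2, with the same window. A match of letters is a description and not a binding site. The windows also differ in base composition, with 38.8% G and C in S1pr4 and 69.2% in S1pr5.

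In lymph node the receptors moved in opposite directions between the genotypes. In DKO nodes S1pr2 was 3.25-fold and S1pr3 1.68-fold the DKO/hA-I level, while S1pr1 fell to 0.594 times its DKO/hA-I level (edgeR, adjusted p below). In all, 3 of the 10 genes passed the threshold of adjusted p under 0.05, against 6.87% of the 14012 genes tested. Of these 2 were higher and 1 lower in DKO, against 3.95% and 2.92% of genes. In 8 of 10 the groups did not overlap, 4 higher and 4 lower in DKO, against 30.5% of the genes tested (15.6% higher and 14.9% lower).

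S1pr1 (chromosome 3, 115710433 to 115715072, minus strand, GRCm38) encodes the receptor that lymphocytes need to leave lymph nodes. Its level was 207, 159 and 185 CPM in the DKO nodes, against 297, 324 and 314 CPM in the DKO/hA-I nodes. Every DKO node lay below every DKO/hA-I node. The log2 fold change was -0.75 ± 0.14 (SE, adjusted p = 0.0239). The call was lost without DKO replicate 3 (adjusted p = 0.0893), and likewise on leaving out any DKO/hA-I node, replicate 1, 2 or 3 (0.0736, 0.111 and 0.0652), with the log2 fold change between -0.87 and -0.66 over all such fits. It was also lost with the title replicate number as a block (0.0676).

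S1pr2 (chromosome 9, 20962361 to 20976781, minus strand) encodes the receptor coupled to the G12 and G13 proteins that holds germinal centre B cells in place. It stood at 40.5, 69.0 and 52.7 CPM in DKO nodes, against 20.4, 16.8 and 13.0 CPM in DKO/hA-I nodes. Every DKO node lay above every DKO/hA-I node. The log2 fold change was 1.70 ± 0.24 (adjusted p = 0.0140). Without DKO replicate 3 adjusted p was 0.0504 and without DKO/hA-I replicate 2 it was 0.065, with a log2 fold change of 1.70 in both fits. The authors' deposited table also called S1pr2, with a q-value of 0.000133 and a log2 ratio of -1.63, whose sign in lymph node runs DKO/hA-I over DKO. It did not call S1pr1 or S1pr3 in lymph node (q-values of 0.177 and 0.187).

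S1pr3 (chromosome 13, 51408639 to 51422797, plus strand) encodes a receptor of endothelium, muscle and marginal zone B cells. Its level was 109, 95.2 and 120.2 CPM in DKO nodes, against 63.0, 56.4 and 75.1 CPM in DKO/hA-I nodes. The groups stood apart, with the gap between 75.1 and 95.2 CPM. The log2 fold change was 0.75 ± 0.15 (adjusted p = 0.0317). The call was lost without DKO replicates 1 and 3 (0.0743 and 0.12) and on leaving out DKO/hA-I replicate 1 or 2 (0.109 and 0.138).

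S1pr4 (chromosome 10, 81497747 to 81500132, minus strand) encodes a receptor of leukocytes. It stood at 80.6, 41.3 and 62.2 CPM in DKO nodes, against 88.4, 93.7 and 86.6 CPM in DKO/hA-I nodes. The DKO nodes were all lower and spread widely, and the log2 fold change of -0.53 ± 0.22 did not pass the test (adjusted p = 0.189). S1pr5 (chromosome 9, 21242912 to 21248443, minus strand), a receptor with which NK cells leave tissue, was close to the floor of detection. It had 15, 1 and 10 counts in DKO nodes, against 42, 22 and 33 counts in DKO/hA-I nodes. The value in DKO replicate 2 lies under a floor of 3 counts, 0.507 CPM in that library. Per total counts the summed counts of 26 and 97 gave a ratio of 0.28, with an exact 95% interval of 0.174 to 0.435 that covers counting error only.

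The edgeR log2 fold change of S1pr5 was -1.82 ± 0.52 (adjusted p = 0.0814). The tools divided on this gene. DESeq2 gave an adjusted p of 0.0223, edgeR without DKO replicate 2 gave 0.0479 with a log2 fold change of -1.47, and the authors' deposited table called it with a q-value of 0.0444.

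**Figure D1:**
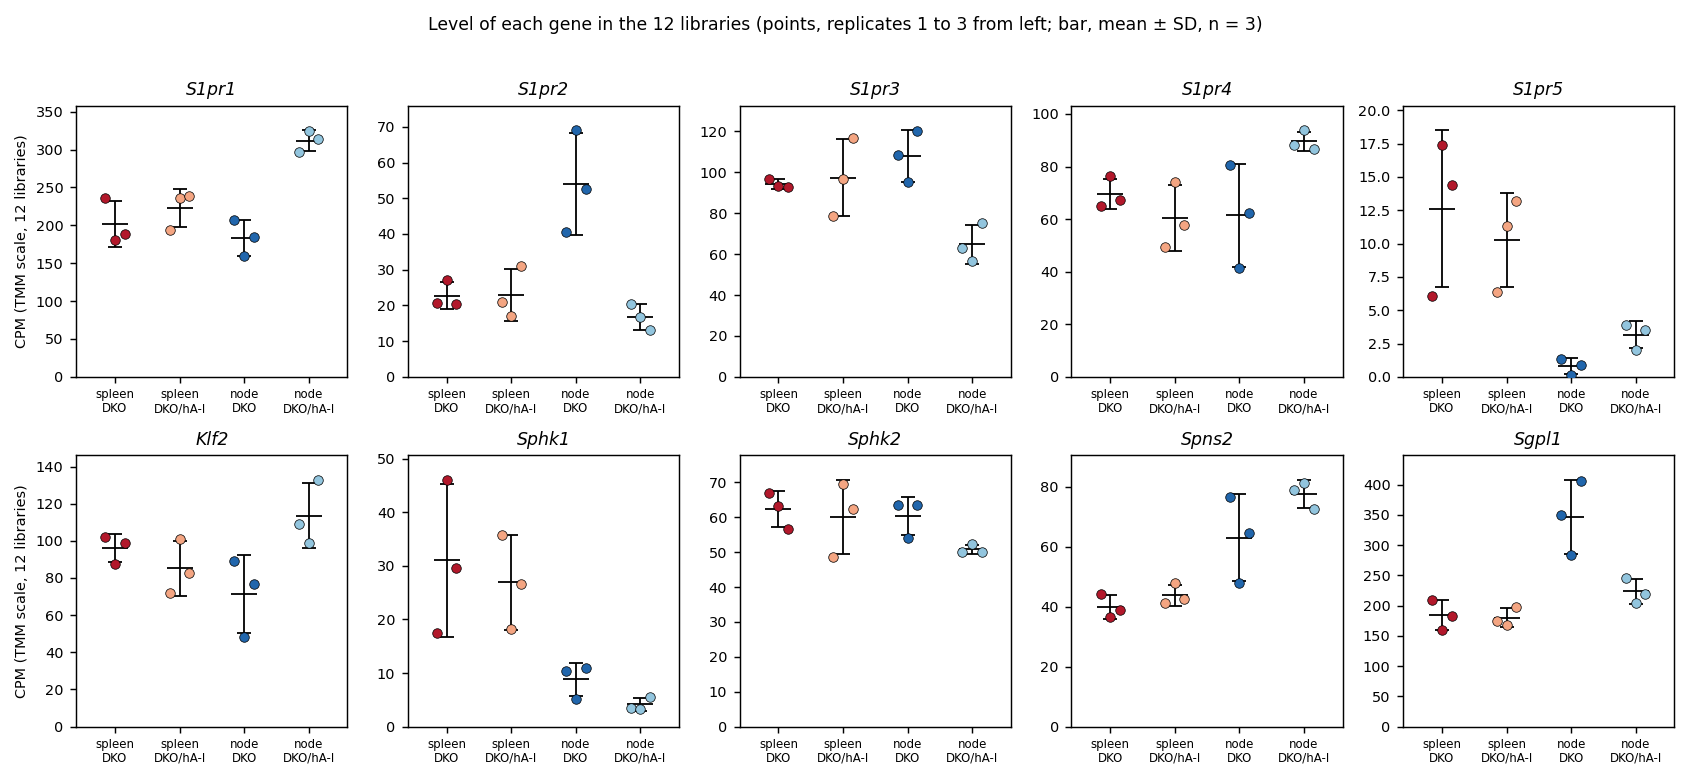
Level of the 10 genes in CPM (linear axis from 0) in DKO spleens, DKO/hA-I spleens, DKO nodes and DKO/hA-I nodes; points are libraries, bars the mean ± SD of n = 3. In the nodes S1pr1 lies between 159 and 207 CPM in DKO and between 297 and 324 CPM in DKO/hA-I, S1pr2 lies the other way round, and in the spleens the genotypes overlap for every gene.

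Klf2 (chromosome 8, 72319033 to 72321656, plus strand), the activator of S1pr1 in T cells, had 89.3, 48.2 and 76.7 CPM in DKO nodes, against 109, 98.6 and 133 CPM in DKO/hA-I nodes. Like S1pr1 it was lower in each DKO node than in each DKO/hA-I node, but its log2 fold change of -0.65 ± 0.23 did not pass the test (adjusted p = 0.133). Ratios of counts within a library do not depend on how libraries are scaled. The ratio of Klf2 to S1pr1 counts was 0.431, 0.304 and 0.415 in DKO nodes, against 0.366, 0.304 and 0.423 in DKO/hA-I nodes. These ranges overlap. The ratio of S1pr2 to S1pr1 counts was 0.196, 0.434 and 0.285 in DKO nodes, against 0.0685, 0.0519 and 0.0414 in DKO/hA-I nodes, and the ratio of S1pr3 to S1pr1 counts 0.524, 0.599 and 0.651 against 0.212, 0.174 and 0.239. Both ratios were higher in every DKO node. This follows from the CPM above, where S1pr2 and S1pr3 lay higher and S1pr1 lower in every DKO node, and adds no further test. In the spleens the ratio of S1pr2 to S1pr1 counts was 0.0879 to 0.150 in DKO and 0.0716 to 0.130 in DKO/hA-I, which overlap. The ratio of Klf2 to S1pr1 counts was 0.432, 0.482 and 0.527 in DKO spleens, against 0.370, 0.428 and 0.347 in DKO/hA-I spleens, and there the groups lay apart by a small margin, a difference that was not tested.

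**Figure D2:**
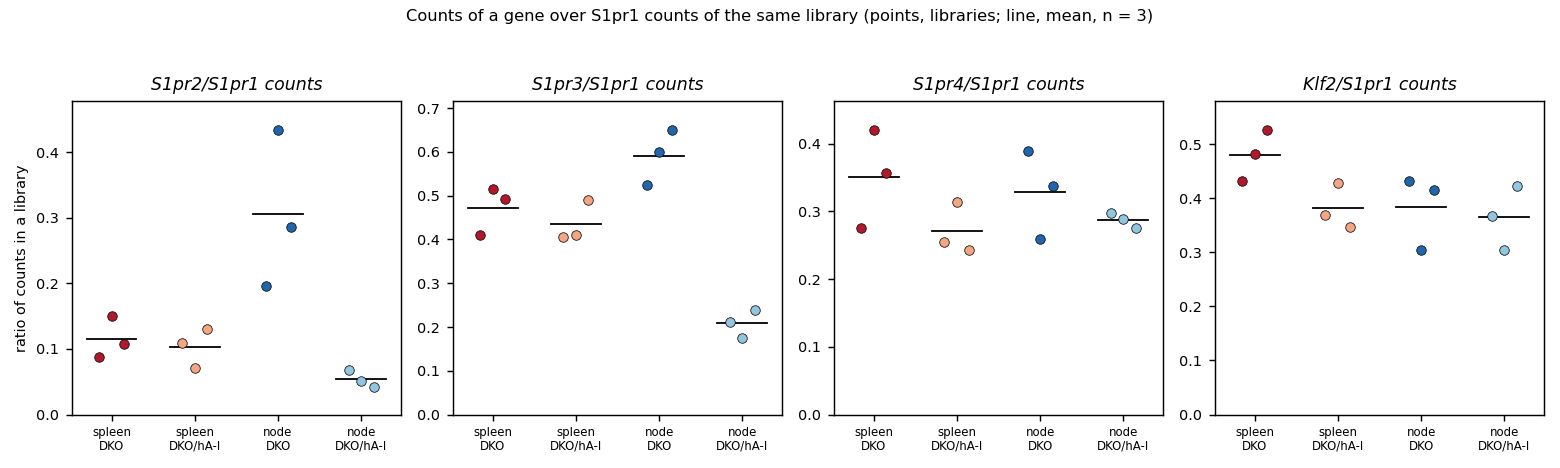
Counts of S1pr2, S1pr3, S1pr4 and Klf2 divided by S1pr1 counts of the same library (linear axes from 0) in the 4 groups; points are libraries and lines means of n = 3. The S1pr2 and S1pr3 ratios of the DKO nodes lie above those of the DKO/hA-I nodes, while the Klf2 ratios overlap in the nodes.

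The enzymes and the transporter did not pass the test in lymph node. Sgpl1 (chromosome 10, 61098642 to 61147703, minus strand), the lyase that breaks sphingosine-1-phosphate down irreversibly, had 349.6, 284 and 406 CPM in DKO nodes, against 246, 205 and 219 CPM in DKO/hA-I nodes. The groups did not overlap, and the log2 fold change of 0.65 ± 0.16 lay just outside the threshold (adjusted p = 0.0549). It was called by DESeq2 (0.00585) and by edgeR without DKO replicate 2 (0.00616).

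Sphk1 (chromosome 11, 116530925 to 116536674, plus strand), a kinase that makes the lipid and is induced by growth factors, had 10.4, 5.23 and 10.9 CPM in DKO nodes, against 3.53, 3.34 and 5.48 CPM in DKO/hA-I nodes. DKO replicate 2 fell within the DKO/hA-I range (log2 fold change 1.13 ± 0.34, adjusted p = 0.0892). DESeq2 gave 0.028, and without DKO replicate 2 edgeR gave 0.00942. The second kinase gene, Sphk2 (chromosome 7, 45709467 to 45718002, minus strand), had 63.5, 54.2 and 63.5 CPM in DKO nodes, against 50.1, 52.3 and 50.1 CPM in DKO/hA-I nodes. The groups lay apart by a small margin, and the difference did not pass the test (log2 fold change 0.26 ± 0.12, adjusted p = 0.216). Exons of Dbp and Rpl18 on the other strand overlap 13.0% and 8.97% of its exon length, and the sources used here do not say whether counting used strand, so its counts are uncertain. Spns2 (chromosome 11, 72451638 to 72489904, minus strand), through which endothelial cells release the lipid, had 76.6, 47.7 and 64.5 CPM in DKO nodes, against 79.0, 81.4 and 72.5 CPM in DKO/hA-I nodes. These groups overlapped (log2 fold change -0.29 ± 0.18, adjusted p = 0.36).

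Cell type markers differed between the same nodes, and their part in the results was not tested. In bulk tissue, fewer cells of a type and less RNA per cell cannot be told apart. Beside the counts called in each list, 6.87% of the 14012 genes tested in lymph node were called, 3.95% higher and 2.92% lower. An unadjusted p under 0.05 was found by edgeR for 3516 of the genes tested. The summed level of 7 T cell markers was 553 to 856 CPM in DKO nodes and 1058 to 1267 CPM in DKO/hA-I nodes, with 1 of 7 called lower. The 5 B cell markers summed to 1594 to 2463 CPM and 2653 to 3012 CPM in DKO and DKO/hA-I nodes, with 0 of 5 called by edgeR and 3 at an unadjusted p under 0.05. Lymphocyte sums were thus lower in every DKO node.

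The 5 NK cell markers summed to 34.4 to 50.3 CPM in DKO and 58.5 to 81.3 CPM in DKO/hA-I nodes (3 of 5 lower), and the 8 blood endothelium markers to 600 to 726 CPM and 865 to 907 CPM (2 of 8 lower). The 6 macrophage markers summed to 1239 to 4697 CPM in DKO nodes and 603 to 762 CPM in DKO/hA-I nodes (4 of 6 higher), and the 6 adipocyte markers to 58.5 to 96.7 CPM and 474 to 1555 CPM (6 of 6 lower). The sums of the other lists overlapped between the genotypes. Lymphatic endothelium markers summed to 352 to 506 CPM in DKO and 505 to 676 CPM in DKO/hA-I nodes, with 1 of 6 called lower. Neutrophil markers summed to 135 to 941 and 47.4 to 150 CPM (1 of 4 called higher). Platelet markers summed to 24.3 to 40.0 and 31.9 to 71.1 CPM (1 of 2 tested called higher). Erythroid markers summed to 0.630 to 2.02 and 0.430 to 0.743 CPM, and 0 of them were tested. Smooth muscle and pericyte markers summed to 203 to 322 CPM in DKO and 202 to 208 CPM in DKO/hA-I nodes, with 1 of 5 tested called higher, the pericyte gene Pdgfrb (87.4 ± 23.2 and 37.5 ± 0.798 CPM, adjusted p = 0.0177). Marginal zone B cell markers summed to 513 to 688 and 577 to 665 CPM, with 1 of 4 called higher and 1 lower. Myof was called higher (257 ± 149 CPM in DKO and 59.2 ± 5.06 CPM in DKO/hA-I nodes, adjusted p = 0.0305) and Cd1d1 lower (24.8 ± 5.69 and 50.6 ± 5.33 CPM, adjusted p = 0.0258), while Cr2 (276 ± 53.7 and 419 ± 43.2 CPM) and Dtx1 (58.4 ± 16.4 and 83.9 ± 9.95 CPM) did not pass (adjusted p = 0.0867 and 0.193). No marker of these lists was at 0 in a node group. Germinal centre markers summed to 103, 287 and 104 CPM in DKO nodes and 102 to 125 CPM in DKO/hA-I nodes, with 0 of 5 called. S1pr2 in the same 3 DKO nodes was 40.5, 69.0 and 52.7 CPM, highest in the node with the highest germinal centre sum. That node, DKO replicate 2, also had the lowest T cell (553 CPM) and macrophage sums (1239 CPM) of the 3 and the highest neutrophil sum (941 CPM). The part of this in the fits without that library was not tested.

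**Figure D3:**
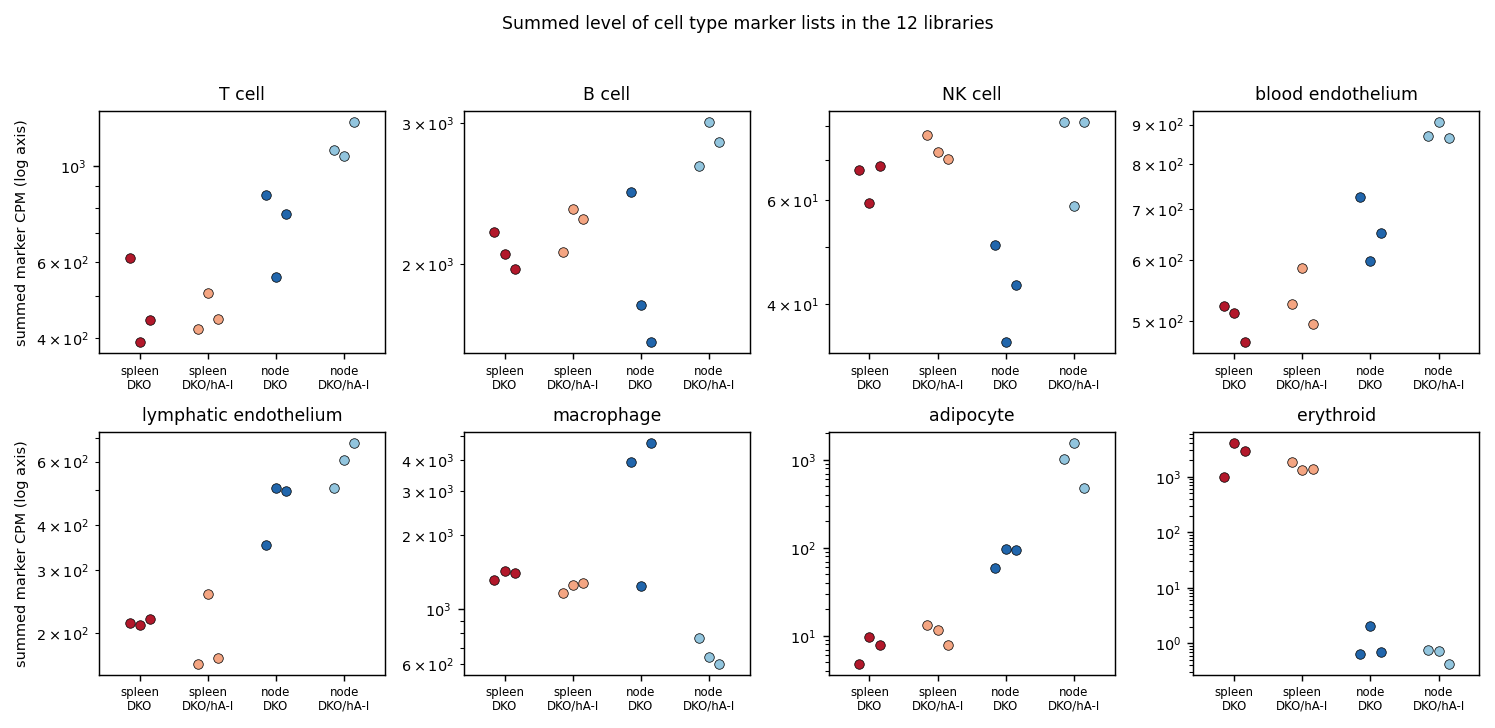
Summed CPM (log axis) of 8 marker lists in DKO spleens, DKO/hA-I spleens, DKO nodes and DKO/hA-I nodes; points are libraries. In the nodes the T cell, B cell, NK cell, blood endothelium and adipocyte sums are lower and the macrophage sum higher in each DKO library than in each DKO/hA-I library.

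In spleen 0 of the 10 genes passed the test by edgeR, DESeq2 or limma voom, 0 had an unadjusted p under 0.05 by edgeR and 0 had groups that did not overlap. The background was 0.00714% of 14009 genes called and 10.6% without overlap. S1pr1 had 236, 181 and 188 CPM in DKO spleens, against 194, 236 and 238 CPM in DKO/hA-I spleens (log2 fold change -0.15 ± 0.14, adjusted p = 0.929). S1pr2 had 20.8, 27.2 and 20.3 CPM in DKO spleens, against 21.0, 16.9 and 30.9 CPM in DKO/hA-I spleens (log2 fold change -0.02 ± 0.22, adjusted p = 0.989). The remaining log2 fold changes lay between -0.14 for Spns2 and 0.29 for S1pr5. The middle numbers of the animal code were 56, 57 and 55 in DKO spleens and 55, 57 and 57 in DKO/hA-I spleens, so 55 and 57 hold both genotypes. With that number as a block the log2 fold change was 0.75 ± 0.19 for S1pr5 (adjusted p = 0.0613) and 0.48 ± 0.36 for Sphk1 (0.506), and -0.25 for S1pr1, 0.30 for S1pr4 and -0.22 for Spns2, none of them called. With this block 515 genes were called over all genes, against 1 without it. The number 56 occurs in DKO replicate 1 alone, so with the block that library does not enter the estimate of the genotype difference. Leaving that library out, without a block, gave 167 calls over all genes. The part of the block and of that library in the rise was not tested. The sets of values overlapped throughout, and the sign of S1pr2, S1pr3, Sphk1, Sphk2 and Sgpl1 turned under at least 1 alternative setting.

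**Figure D4:**
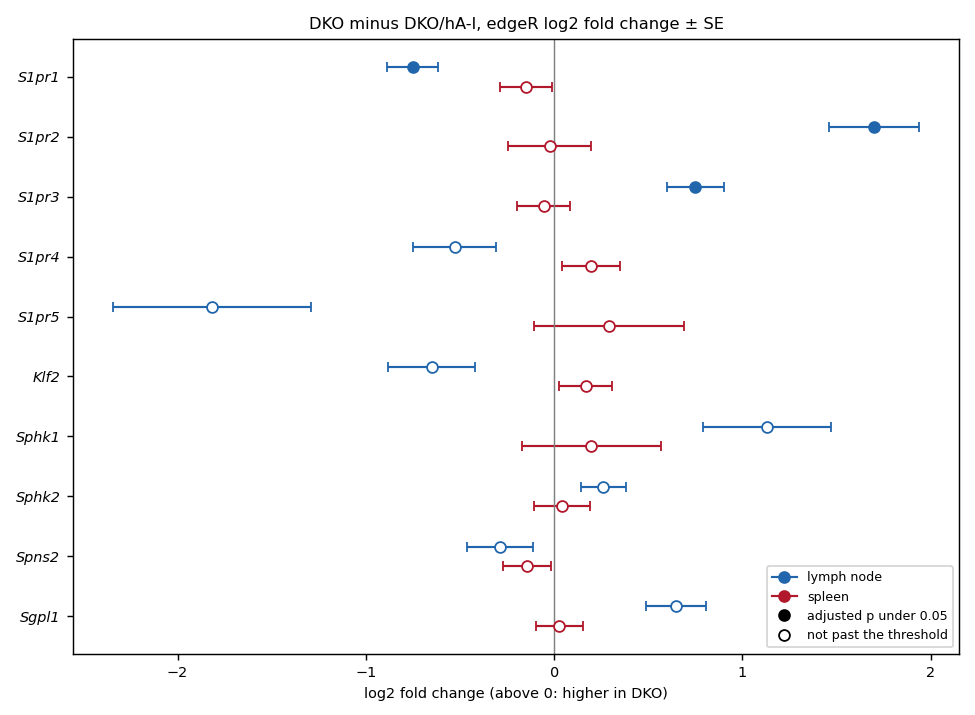
edgeR log2 fold change, DKO minus DKO/hA-I, with SE for the 10 genes in lymph node (blue) and spleen (red); filled points passed adjusted p under 0.05. S1pr1, S1pr2 and S1pr3 are filled in lymph node at -0.75, 1.70 and 0.75, and no gene is filled in spleen.

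Whether the genotype difference is unequal in the tissues was tested as an interaction, the spleen difference minus the node difference, in a fit of all 12 libraries. S1pr2 passed, with -1.70 ± 0.36 (adjusted p = 0.0249), against 3.33% of 14608 genes. The call was lost with the replicate block (0.0533) and without DKO node replicate 3 (0.0518), DKO/hA-I node replicate 2 (0.0643), DKO spleen replicate 1 or 3 (0.0537 and 0.076) and DKO/hA-I spleen replicate 1 or 3 (just over the threshold, and 0.0631). For S1pr3 the interaction was -0.78 ± 0.22 (adjusted p = 0.0697), for S1pr1 0.62 ± 0.19 (0.106) and for Klf2 0.84 ± 0.29 (0.142). For S1pr5 it was 2.10 ± 0.70 (0.134). By edgeR a difference between the tissues was not shown for these 4 genes, while DESeq2 called S1pr3 (adjusted p = 0.0211) and S1pr5 (0.0329). S1pr3 also passed in edgeR without DKO node replicate 2 (0.0237), DKO/hA-I node replicate 3 (0.0467) or DKO/hA-I spleen replicate 1 (0.0491).

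Between the tissues, the kinase gene Sphk1 and the NK cell receptor gene S1pr5 were higher in spleen, and the transporter gene Spns2 lower, in both genotypes. Spleens and nodes came from mice with different animal codes, so the tissue and the set of animals cannot be told apart, and these comparisons share libraries with the genotype comparisons. In each genotype 5 of 10 genes passed, against 22.8% of 14608 genes in DKO and 25.7% in DKO/hA-I. Sphk1 had 17.4, 46.0 and 29.6 CPM in DKO spleens, against 10.4, 5.23 and 10.9 CPM in DKO nodes. Its log2 fold change, spleen minus node, was 1.78 ± 0.37 in DKO (adjusted p = 0.00339) and 2.72 ± 0.39 in DKO/hA-I (adjusted p = 0.000241).

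S1pr5 had 6.07, 17.4 and 14.4 CPM in DKO spleens, against 1.35, 0.169 and 0.883 CPM in DKO nodes (log2 fold change 3.81 ± 0.53, adjusted p = 0.000182). In DKO/hA-I it had 6.36, 11.3 and 13.2 CPM in spleens, against 3.90, 1.99 and 3.55 CPM in nodes (1.71 ± 0.45, adjusted p = 0.0123), and this call was lost without node replicate 2 (0.0617) or spleen replicate 3 (0.0573). Every spleen lay above every node of its genotype. The 5 NK cell markers summed to 59.2 to 68.4 CPM in DKO spleens and 34.4 to 50.3 CPM in DKO nodes, where Gzma, Klra8 and Ncr1 were called higher in spleen. In DKO/hA-I they summed to 70.4 to 77.3 CPM in spleens and 58.5 to 81.3 CPM in nodes, with Gzma called higher and Eomes lower. Every DKO spleen thus lay above every DKO node in this sum, while the DKO/hA-I tissues overlapped, and the part of NK cells in S1pr5 was not tested. Spns2 had 44.2, 36.5 and 39.0 CPM in DKO spleens, below each DKO node (log2 fold change -0.66 ± 0.16, adjusted p = 0.00771), and 41.1, 47.8 and 42.6 CPM in DKO/hA-I spleens, below each DKO/hA-I node (-0.82 ± 0.16, adjusted p = 0.0016). In the fit of the 6 DKO libraries alone adjusted p for Spns2 was 0.057.

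Other genes passed in 1 genotype as labelled. In DKO, S1pr2 was lower in spleen (log2 fold change -1.24 ± 0.25, adjusted p = 0.00295), as was Sgpl1, with 210, 160.3 and 183 CPM in spleens below each node (-0.91 ± 0.15, adjusted p = 0.000579). In DKO/hA-I, S1pr1 was lower in spleen (-0.48 ± 0.14, adjusted p = 0.0189, and 0.055 and 0.0884 without node replicate 2 and spleen replicate 1) and S1pr3 higher (0.59 ± 0.15, adjusted p = 0.0121, and 0.0655 and 0.0796 without node replicate 2 and spleen replicate 3). S1pr2 in DKO/hA-I had a log2 fold change of 0.46 ± 0.25 (adjusted p = 0.225), and S1pr1 in DKO one of 0.14 ± 0.14 (adjusted p = 0.527). For Sgpl1 in DKO/hA-I it was -0.31 ± 0.15 (adjusted p = 0.145), with every spleen below every node. For S1pr3 in DKO it was -0.20 ± 0.15 (adjusted p = 0.394), and the groups overlapped. Of these genes the difference between the genotypes passed for S1pr2, as the interaction above, and not for S1pr1, S1pr3 or Sgpl1 (-0.60 ± 0.21, adjusted p = 0.147, and 0.0253 without DKO node replicate 2). S1pr4, Sphk2 and Klf2 passed in neither genotype, with log2 fold changes between -0.57 and 0.42, but S1pr4 in DKO/hA-I lay near the threshold (-0.57 ± 0.20, adjusted p = 0.0582), with every spleen below every node. It was called by DESeq2 (0.0337), limma voom (0.0468), the fit of the 6 DKO/hA-I libraries (0.0108) and edgeR without spleen replicate 2 (0.0298), and over all alternatives adjusted p was 0.0108 to 0.208.

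**Figure D5:**
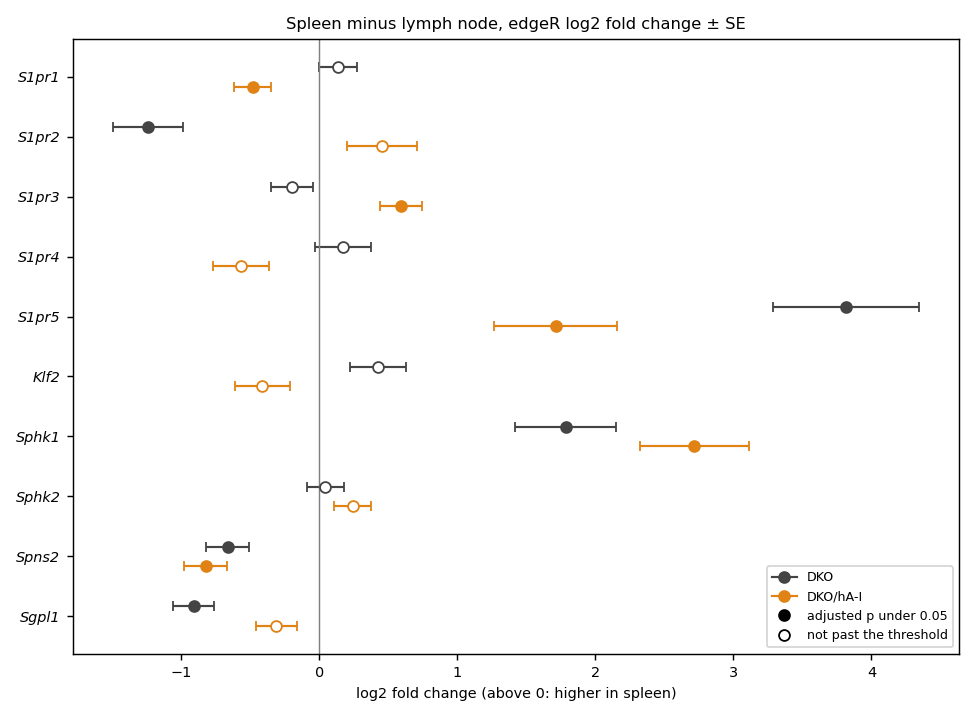
edgeR log2 fold change, spleen minus lymph node, with SE for the 10 genes in DKO (grey) and DKO/hA-I (orange); filled points passed adjusted p under 0.05. S1pr5 (3.81 and 1.71) and Sphk1 (1.78 and 2.72) lie right of 0 and Spns2 (-0.66 and -0.82) left of 0 in both genotypes.

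Per length, S1pr1 was the most abundant of the 10 transcripts in the spleens of both genotypes and in DKO/hA-I nodes, and Sgpl1 in DKO nodes. Levels are CPM per kilobase of the longest coding transcript in GENCODE vM21, which need not be the annotation of the counting. The place of Sgpl1 depends on this choice. All its exons together hold 6143 bases, against 4102 in that transcript, while S1pr1 has 3046 by both measures. By the length of all exons Sgpl1 came at place 3 over the 6 nodes, after S1pr1 and Klf2, instead of place 2. The order in spleen was the same in DKO and DKO/hA-I, and its values are means over the 6 spleens of both. S1pr1 averaged 69.7 ± 8.95 CPM per kilobase (SD). In spleen Klf2 (49.1 ± 6.59) and Sgpl1 (44.4 ± 4.55) came next, each with every library below S1pr1, and these neighbours overlapped. Then came S1pr4 (27.2), S1pr3 (21.5), Sphk2 (17.2), Spns2 (12.9), Sphk1 (10.9), S1pr5 (4.58) and S1pr2 (3.57). Each of these overlapped its neighbour except S1pr4, which lay below Sgpl1 in every library.

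In lymph node the order differed between the genotypes. In DKO nodes Sgpl1 stood at 85.2, 69.2 and 99.0 CPM per kilobase, with every library above S1pr1 at 68.0, 52.2 and 60.6. This lead holds for the longest coding transcript and is not kept with the length of all exons. In DKO/hA-I nodes S1pr1 stood at 97.6, 106 and 103 CPM per kilobase, with every library above Klf2 (61.4 ± 9.47) and Sgpl1 (54.4 ± 5.07), which overlapped each other. After Sgpl1 and S1pr1, the order of means in DKO nodes was Klf2 (38.7), S1pr4 (25.7), S1pr3 (24.2), Spns2 (19.4), Sphk2 (17.0), S1pr2 (8.46), Sphk1 (3.31) and S1pr5 (0.320). S1pr4, S1pr3, Spns2 and Sphk2 each overlapped the gene before it in that order, while Klf2, S1pr2, Sphk1 and S1pr5 each lay below it in every library. In DKO/hA-I nodes S1pr4 (37.5), Spns2 (23.9), S1pr3 (14.5), Sphk2 (14.3), S1pr2 (2.62), Sphk1 (1.55) and S1pr5 (1.26) followed. There Sphk2, Sphk1 and S1pr5 each overlapped the gene before it, while S1pr4, Spns2, S1pr3 and S1pr2 each lay below it in every library. S1pr3 thus came before Spns2 in the means of DKO nodes and after it in DKO/hA-I nodes.

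Other genes that handle sphingosine-1-phosphate rose in part in DKO nodes. Of 12 listed, 10 were tested, 3 were called higher and 0 lower, against 3.95% and 2.92% of all genes, with a median log2 fold change of 0.42, against 0.01 over all genes. The called genes were Acer3 (52.4 ± 10.5 CPM in DKO, 24.2 ± 2.09 CPM in DKO/hA-I, adjusted p = 0.0162) and Asah1 (231 ± 51.7 and 124 ± 16.3 CPM, adjusted p = 0.0327), ceramidases that yield sphingosine, and the lipid phosphatase gene Ppap2a, now Plpp1 (30.1 ± 5.29 and 17.8 ± 1.32 CPM, adjusted p = 0.0375; errors are SD, n = 3). Each was lost in at least 3 of the 6 fits that left out 1 library, at most to 0.0785 for Acer3, 0.136 for Asah1 and 0.155 for Ppap2a, all without DKO/hA-I replicate 2. All 3 also passed the interaction test (-1.17 ± 0.23, -0.95 ± 0.21 and -0.80 ± 0.18, adjusted p = 0.0165, 0.0313 and 0.0364), with adjusted p up to 0.0539, 0.0891 and 0.105 when 1 library was left out. The phosphatase gene Sgpp1 stood at 72.8 ± 5.63 CPM in DKO and 75.4 ± 12.4 CPM in DKO/hA-I nodes (adjusted p = 0.903).

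Among 11 genes of lymphocyte homing and exit, 10 had a negative log2 fold change in DKO nodes, 2 were called lower and 0 higher, beside the same shares of all genes (median -0.44). Klf3, a factor related to KLF2, was one of them and stood at 48.4 ± 4.78 CPM in DKO nodes and 72.3 ± 5.68 CPM in DKO/hA-I nodes (log2 fold change -0.56 ± 0.13, adjusted p = 0.0428). Over the fits that left out 1 library adjusted p reached 0.175 for Klf3 (without DKO/hA-I replicate 2). Ccr7, the chemokine receptor for entry and residence, did not pass (134 ± 67.1 and 193 ± 28.8 CPM, adjusted p = 0.453), nor did Cd69, whose product removes the S1pr1 receptor from the surface (52.2 ± 5.41 and 66.9 ± 43.1 CPM, adjusted p = 0.653).

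Of 26 ceramide and sphingolipid enzymes and regulators, 21 were tested in lymph node. Of these 2 were called higher and 1 lower, against 3.95% and 2.92% of all genes. Their median log2 fold change was 0.08, against 0.01 over all genes. The sphingomyelin synthase gene Sgms2 stood at 11.4 ± 1.95 CPM in DKO and 2.78 ± 0.888 CPM in DKO/hA-I nodes (log2 fold change 2.04 ± 0.29, adjusted p = 0.0138). The ceramide synthase gene Lass6, now Cers6, was called just under the threshold (28.6 ± 7.31 and 15.03 ± 2.08 CPM, 0.94 ± 0.23). Ormdl3, an inhibitor of the first step of sphingolipid synthesis, was lower (38.9 ± 3.17 and 72.0 ± 17.7 CPM, -0.88 ± 0.19, adjusted p = 0.0399). Without DKO replicate 3 none of these 3 was called (0.0516, 0.168 and 0.134 for Sgms2, Lass6 and Ormdl3). Of 16 genes that couple the receptors to the cell, 1 was called higher and 1 lower, beside the same shares of all genes. Gnaq was higher (0.57 ± 0.12, adjusted p = 0.034, and at most 0.134 with 1 library left out). Gnai1 was lower (1.31 ± 0.19 CPM in DKO and 10.1 ± 5.31 CPM in DKO/hA-I nodes, -2.96 ± 0.43, adjusted p = 0.0141, and 0.0581 without DKO replicate 3). Gnai2, Gna13 and Arhgef1 did not pass. In spleen 0 of the tested genes of these 4 lists were called by edgeR between the genotypes, with 1 at an unadjusted p under 0.05.

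Between the tissues, Mfsd2b, the exporter of red cells and platelets, stood at 101 ± 39.7 CPM in DKO spleens and 1.91 ± 0.604 CPM in DKO nodes (log2 fold change 5.77 ± 0.36, adjusted p = 2.87e-07). In DKO/hA-I it stood at 84.0 ± 16.9 CPM in spleens and 2.35 ± 0.667 CPM in nodes (5.16 ± 0.34, adjusted p = 3.97e-07). Erythroid and platelet marker sums were also higher in every spleen than in every node. Platelet markers summed to 201 to 387 CPM in DKO spleens and 24.3 to 40.0 CPM in DKO nodes. In DKO/hA-I they summed to 252 to 355 CPM in spleens and 31.9 to 71.1 CPM in nodes. The part of erythroid and platelet RNA in Mfsd2b was not tested. Ppap2a was also higher in spleen in both genotypes (0.96 ± 0.13 and 1.76 ± 0.13 on the log2 scale, adjusted p = 0.00015 and 1.15e-06 in DKO and DKO/hA-I), while the ceramidase genes Asah2 and Acer2 were lower in both (Acer2 in DKO was not called without spleen replicate 2 or 3, adjusted p = 0.0694 and 0.0711).

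The genes most like each member were sought over 10387 genes with at least 5 CPM in each tissue. Likeness was the smaller of 2 Pearson r, over the 6 spleens and over the 6 nodes, and the points include the genotype difference. For S1pr1 they included Syne2 (r = 0.957 in spleen and 0.982 in lymph node) and Ano1. For Klf2 they were Ikbkb, Ccr7 (0.931 and 0.924) and Fmnl1. Scara3 (0.980 and 0.966), Il18bp and Il34 were nearest to S1pr3, and Epb4.1l3 (0.956 and 0.917), Ext1 and Mpv17 to S1pr2. Near to Sgpl1 were Npc1 (0.977 and 0.967), which encodes a lysosomal cholesterol transporter, and the matrix proteoglycan gene Bgn.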

How the data were processed

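Poly(A) RNA of spleen and axillary lymph node was sequenced from 3 libraries per genotype and tissue. The 2 deposited tables, 1 per tissue, hold raw read counts of 23284 gene symbols, per the file headers, beside the authors' log2 ratio, p-values and q-values of the genotype comparison. The submitters' processing notes name Trimmomatic, Bowtie, TopHat, Cuffdiff and the build GRCm38 (mm10). The sources used here give no versions, annotation, counting program or strand setting. The headers do not say which genotype is the authors' first group, and their 2 FPKM columns per table were not used. The sign of their log2 ratios was read from the correlation with edgeR over genes (-0.993 in lymph node and 0.945 in spleen), so relative to the labels it runs DKO/hA-I over DKO in lymph node and DKO over DKO/hA-I in spleen.

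Columns of counts were matched to libraries by the animal code. Genotypes were compared within each tissue, DKO minus DKO/hA-I, and tissues and the interaction in 1 fit of all 12 libraries. edgeR 4.0.16 in R 4.3.3 was used with filterByExpr (minimum count 10, minimum total 15), TMM scaling, robust dispersions and the quasi-likelihood test, with Benjamini-Hochberg adjustment over all genes tested and a threshold of 0.05. CPM are on the TMM scale of the 12-library fit, errors of log2 fold changes are SE, and a floor of 3 counts was used. Alternatives used DESeq2 1.42.0, limma 3.58.1 (voom), other scalings, no filter, a replicate block, an animal code block in spleen and fits without each library. P-values measure the spread between libraries, whose animal codes are all different. Intervals are exact binomial intervals of counts summed over libraries, so they cover counting error only and not the spread between animals. The labels name no molecular identifiers. The steps were tested on simulated data.

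The 10 members and the gene lists were chosen with earlier results of these data known. Named genes are the 10 members, called genes of 4 lists with a few others as values, and for each member the 3 genes of highest likeness, given for 5 members. Some genes that these rules pick are not reported here. Coordinates and lengths come from GENCODE vM21 on GRCm38 and promoters from RefSeq on GRCm38.p6. Older symbols of list genes were looked up in a table of synonyms.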

Additional observations from a re-analysis of the deposited data

Results flagged for a closer look

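The genotype difference of S1pr2 differed between the tissues by a test of the difference itself. The interaction, spleen difference minus node difference, was -1.70 on the log2 scale (edgeR, adjusted p = 0.0249), with higher values in 3 of 3 DKO nodes than in any DKO/hA-I node and overlapping values in the spleens. The call was lost with the replicate block (adjusted p = 0.0533) and in 6 of 12 fits that left out 1 library (up to 0.076). The test and its direction hold for the labels as given, and Rpl31-ps12 sets the labels of the tissues against each other.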

How the results depend on the processing

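In lymph node the number of members called was 3, and 6 with DESeq2 and 2 with the replicate block. It ran from 0 (without DKO replicate 3 or DKO/hA-I replicate 2) to 6 (without DKO replicate 2) when 1 library was left out, and each member kept its direction in all these fits. In spleen it was 0 under all settings. For spleen against node it stayed at 5 in DKO when 1 library was left out and ran from 2 to 6 in DKO/hA-I. For the interaction it was 1, and 3 with DESeq2, 0 with the replicate block and 0 to 3 without 1 library. In spleen, S1pr2 turned to 0.0713 with the animal code block, 0.00908 with voom and 0.00528 with the replicate block, and ran from -0.20 to 0.25 without 1 library. Sphk2 turned to -0.0178 with library size only, and Sgpl1 to -0.0898 with the animal code block and -0.0301 with library size only. Without 1 library, S1pr3 ran from -0.18 to 0.0900, Sphk1 from -0.18 to 0.47, Sphk2 from -0.0817 to 0.16 and Sgpl1 from -0.0860 to 0.13. For spleen against node in DKO, S1pr4 ran from -0.0427 to 0.408 and Sphk2 from -0.0335 to 0.0928, both lowest without DKO node replicate 2.

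Over all genes, lymph node calls numbered 962 (553 higher, 409 lower), 1967 with DESeq2, 438 with the replicate block and 115 to 2245 without 1 library, and with library size only 475 higher and 544 lower. Spleen calls numbered 1, 5 with DESeq2, 515 with the animal code block and 1 to 167 without 1 library. Spleen against node in DKO gave 3325, and 2204 in the fit of 6 libraries. The interaction gave 487, 973 with DESeq2, 253 with voom, 299 with the replicate block and 179 to 1160 without 1 library. Same-numbered libraries did not deviate together (correlations of -0.141 to 0.119), so the block pairs nothing the labels name. Depth limits S1pr5 in the nodes, where 1 library had 1 count.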

Other observations

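Within the spleens Sphk1 varied more between libraries than between genotypes. It had 17.4, 46.0 and 29.6 CPM in DKO replicates 1 to 3, where erythroid markers summed to 981, 4059 and 2912 CPM, against 35.8, 18.3 and 26.6 CPM in DKO/hA-I replicates 1 to 3, where they summed to 1812, 1351 and 1403 CPM. The library with the highest Sphk1 also had the highest erythroid sum, and the library with the lowest Sphk1 the lowest. The part of erythroid RNA in this was not tested.

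S1pr5 was low in 1 spleen of each genotype, with 6.07 CPM in DKO replicate 1 and 6.36 CPM in DKO/hA-I replicate 1, against 11.3 to 17.4 CPM in the other 4 spleens. NK cell markers summed to 67.5 and 77.3 CPM in these 2 spleens and to 59.2 to 72.2 CPM in the others. The chemokine receptor gene Cxcr4 stood at 186 ± 66.6 CPM in DKO and 107 ± 27.95 CPM in DKO/hA-I spleens, the 1 list gene with an unadjusted p under 0.05 there (adjusted p = 0.929).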
